A study of Mus musculus with 9 samples.

Results

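The ephrins, semaphorins, netrins and Slits, with their Eph, plexin, neuropilin, Unc5 and Robo receptors, are the cell guidance families. They are ligands and receptors first described on growing axons, and they also set borders between cells, adhesion and vessel branching. The members were chosen by name: every non-control probe of the array whose gene name begins with Epha, Ephb, Efna, Efnb, Plxn or Unc5, or with Sema, Robo, Slit or Ntn and a digit. This gave 118 probes for 66 genes, of 41174 probes and 27576 gene names in all. A probe was kept when its Cy5 signal was well above background, as the scanner software calls it, on at least 4 of the 9 arrays. That left 80 of the probes and 55 of the genes, among 26833 probes and 18267 genes. Unc50 and Unc5cl share the first letters of the Unc5 receptors but belong to none of the families, so 53 family members were measured.

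Eph receptors are receptor tyrosine kinases that bind ephrins held on the membrane of a neighbouring cell, and the ephrin-bearing cell signals in return. Semaphorins act on plexins, often with a neuropilin as co-receptor, and plexins act on small GTPases and the cytoskeleton. Slits act on Robo receptors, and netrins on Dcc, neogenin and Unc5 receptors. In the mammary gland, netrin and Slit signals are known for holding the luminal and myoepithelial layers together. In intestinal epithelium, expression of EphB receptors and B-type ephrins is known to depend on Wnt signalling through TCF factors.

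The samples were tumour cells of mice carrying the Wnt-1 or the Her2 transgene under the mouse mammary tumour virus promoter, which drives expression mainly in mammary epithelium. Cells had been sorted for the absence of GFP, and the labels do not say what GFP marked. The series' design text gives 5 biological replicates with a Wnt inhibitor, named in the labels as Fzd8-CRD, the Wnt-binding domain of Frizzled 8, and 4 controls. Every array carries both transgenes in its label, so the tumour models could not be separated, and the labels leave out strain, age, dose and time. What the controls received is likewise unknown, since the field for treatment names the inhibitor on all 9 arrays. Each array paired the sorted cells' RNA in Cy5 with a reference RNA in Cy3, which the labels describe variously as universal mouse, pooled from strains or universal human, and a ratio here is log2 of Cy5 over Cy3 after background correction and loess. For that reason a ratio is not read as a level. Arrays are numbered in the order of deposit, which pairs none across the groups.

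The groups were not balanced over slides. All 4 control arrays lay on 1 slide with 1 scan day, and the 5 Fzd8-CRD arrays on 4 other slides with 2 other scan days, so treatment and slide cannot be told apart for any value below. Probes well above background in Cy5 made up 52.5% to 60.0% of the total on Fzd8-CRD arrays and 63.8% to 70.8% on control arrays. Markers of luminal and basal mammary epithelium were bright on every array, with summed Cy5 signals of at least 272393 and 108001. Over all genes, control array 2 correlated with the others at 0.618 to 0.737, below the 0.899 to 0.979 among the other controls. It gave the highest control ratio for 20 of the 55 members and the lowest for 14.

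The genes that passed the test came from Eph receptors, ephrins, semaphorins, plexins and Robo receptors. Of the 55 members, 9 (16.4%) had an adjusted p under 0.05 in limma's moderated test with Benjamini-Hochberg adjustment, against 14.3% of all 18267 genes. Higher in the Fzd8-CRD arrays were 6 members (10.9%, against 6.57% of all genes): Sema5a, Ephb1, Efnb1, Efna5, Plxna3 and Ephb4. Lower were 3 (5.45%, against 7.76% of all genes): Sema7a, Sema3g and Robo4. The share called in either direction thus lies near that of all genes. The median difference over the members was 0.11 log2 units, against -0.073 over all genes, and the groups did not overlap for 12 members (21.8%, against 19.6% of all genes). By family, 2 of 5 EphB receptors, 2 of 7 ephrins, 3 of 17 semaphorins, 1 of 8 plexins and 1 of 3 Robo receptors were called, and none of 5 EphA receptors, 3 Slits, 2 netrins or 3 Unc5 receptors.

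**Figure D1:**
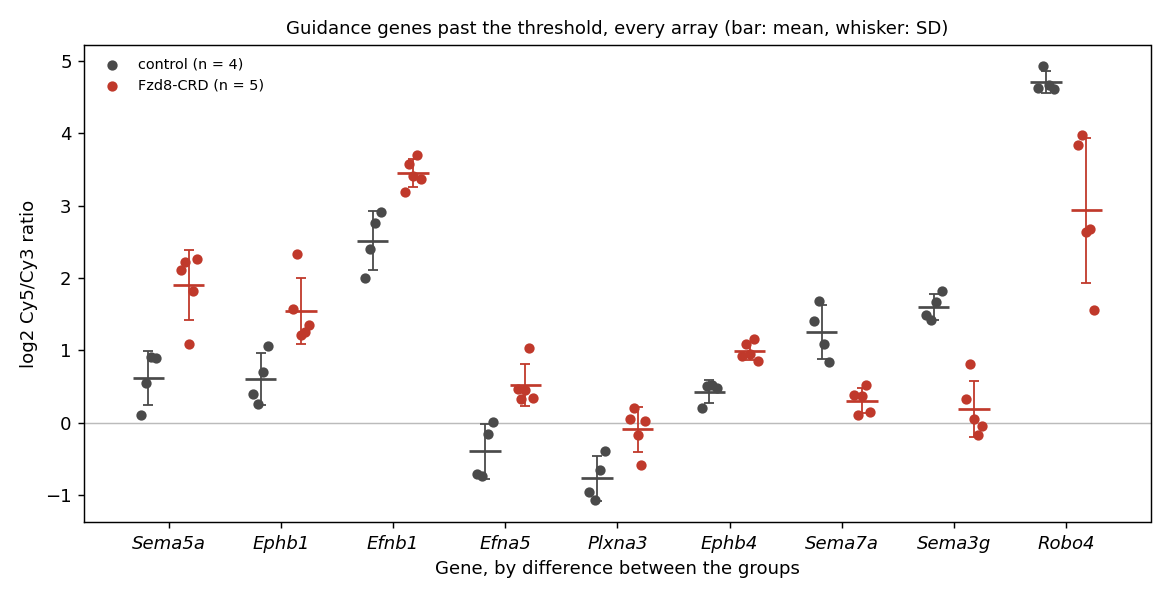
Log2 Cy5/Cy3 ratio (vertical axis) of the 9 members past the threshold (horizontal axis) on each of 4 control arrays (grey) and 5 Fzd8-CRD arrays (red), with group means as bars and SDs as whiskers. The groups are apart for 8 of the 9 genes, and for Plxna3 Fzd8-CRD array 4 at -0.59 lies among the controls.

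Efna5, Sema5a, Ephb4 and Plxna3 had 2 kept probes that did not give the same size of difference, so the value depends on which one is read. First bases are shown for the probes of Efna5 and Sema5a, and for Robo4 and Sema3g, which have a single probe each. Each line gives the first 30 of the 60 probe bases from the deposited files, with the position of the whole probe in the mm8 mouse genome, where each lies on the strand of its gene.
Efna5, brighter probe, chr17:62290290-62290349, minus strand: tgtgattctagcatttgtctctaaccaatg
Efna5, second probe, chr17:62336320-62336379, minus strand: tcggaaaaattccagctcttcactcccttt
Sema5a, brighter probe, chr15:32640693-32640752, plus strand: aatgaagtcataaaatggtcctgcattttg
Sema5a, second probe, chr15:32633956-32634015, plus strand: ctattccaacgcctactttacagatctcaa
Robo4, single probe, chr9:37163623-37163682, plus strand: accaatgcgctattctcattctaccgccac
Sema3g, single probe, chr14:30059258-30059317, plus strand: attgttgttgatatttttattgtcatgttg

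The Efna5 probes start 46030 bases apart in the genome and the Sema5a probes 6737 bases apart. Of the 22 members with more than 1 kept probe, 9 had probes whose differences had opposite signs: Efna5, Robo1, Slit2, Sema6a, Sema6c, Sema6d, Plxna1, Plxna2 and Plxna4. The values that follow are those of each gene's brightest kept probe unless another is named.

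Of the 5 EphB receptors, 2 were called higher in Fzd8-CRD arrays. Ephb1 encodes a receptor for B-type ephrins. Its ratios were 1.57, 2.33, 1.21, 1.26 and 1.34 on Fzd8-CRD arrays 1 to 5 and 0.40, 0.26, 0.70 and 1.06 on control arrays 1 to 4. Every Fzd8-CRD array was above every control, and the difference of 0.94 log2 units (SE 0.26, adjusted p = 0.039 in limma) is a 1.92-fold higher ratio. Its reference signal in Cy3 was not well above background on any array, so the ratio rests on Cy5, which was higher by 1.30 log2 units (adjusted p = 0.00281 in limma). The ratio missed the threshold when any of Fzd8-CRD arrays 1, 4 and 5 (0.93, 1.01 and 0.99) or control arrays 1, 2 and 3 (0.87, 0.82 and 0.97) was left out.

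Ephb4 encodes the receptor that pairs with ephrin-B2 and marks venous endothelium. Its ratios were 0.92, 1.08, 0.95, 1.16 and 0.85 in the treated group and 0.20, 0.51, 0.53 and 0.48 in the controls. The groups were apart, with an SD of 0.12 (n = 5) and 0.15 (n = 4), and differed by 0.56 (SE 0.12, adjusted p = 0.0158 in limma). Control array 1 stood below the other controls. The Cy5 signal alone differed more, by 1.08, and the Cy3 signal of the reference was also higher, by 0.35. A second, dimmer Ephb4 probe gave 0.23 and was not called (adjusted p = 0.204 in limma over all kept probes).

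The other EphB receptors had differences above 0 that missed the threshold. Ephb6, whose kinase domain is inactive, stood at 0.56 (adjusted p = 0.114 in limma). Ephb2 and Ephb3, the receptors best known as TCF targets in gut crypts, stood at 0.46 and 0.27 (adjusted p = 0.19 and 0.312). Ephb3 ratios ran from 2.85 to 3.53 with Fzd8-CRD and from 2.60 to 3.12 in controls, so the groups overlapped. All 5 EphB differences were above 0 under each processing tried, between 0.17 for Ephb3 and 3.40 for Ephb1, and the family median was 0.56. Of the 5 genes listed as TCF-linked in intestinal epithelium, Ephb4 and Efnb1 rose, and Ephb2, Ephb3 and Efnb2 did not pass the test. Their median was 0.46. The list holds both receptors and ligands and sets no shared direction, so this median is not read as a Wnt response.

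EphA receptors gave no call among the 5 measured, and their median was -0.15. Epha2, an EphA receptor that is abundant in many carcinomas, had ratios of 2.70 to 3.76 in the treated group and 3.1 to 3.57 in the controls. Its ratio difference was -0.15 (adjusted p = 0.651 in limma). The difference was 0.70 in Cy5 (adjusted p = 0.0663) and 0.70 in Cy3 (adjusted p = 1.96e-07), so it was of the same size in the tumour signal as in the reference. Epha1 had the widest spread of the family, from 1.28 to 3.36 in Fzd8-CRD arrays and from 0.88 to 2.85 in controls, and its difference of 0.73 (SE 0.54) was not called. Epha7 and Epha4 stood at 0.095 and -0.32, both with overlapping groups. With the scanner software's own ratio Epha7 was called higher, at 3.87 to 4.79 in Fzd8-CRD arrays and 2.32 to 3.58 in controls. Epha3 cleared the background call on all 4 controls and on 0 of 5 Fzd8-CRD arrays, and the fit did not call it (adjusted p = 0.203 in limma). Its control ratios were 0.12, 1.20, 0.12 and 0.20, so control array 2 carried much of the difference of -0.43, which was -0.17 without it.

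Among the ephrins, 1 of 4 A-type and 1 of 3 B-type ligands were called higher. Efnb1 encodes ephrin-B1, a transmembrane ligand for EphB receptors. Its ratios were 3.19, 3.57, 3.40, 3.69 and 3.37 on the Fzd8-CRD arrays and 2.0, 2.40, 2.76 and 2.91 on the controls. The lowest treated array was above the highest control, and the difference was 0.93 (SE 0.20, adjusted p = 0.016 in limma), a 1.91-fold higher ratio. With each dye read alone, Cy5 differed by 0.66 (adjusted p = 0.054 in limma) and Cy3 by -0.40.

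Efna5 encodes ephrin-A5, a ligand anchored to the membrane by a lipid. Its brighter probe gave 0.46, 0.32, 0.45, 1.03 and 0.34 with Fzd8-CRD and -0.71, -0.74, -0.15 and 0.009 in the controls. These groups were apart, by 0.92 on average (SE 0.21, adjusted p = 0.0208 in limma), and Fzd8-CRD array 4 was well above its group. In Cy5 alone the difference was 0.54 (adjusted p = 0.117), and Cy3 was lower by 0.49 log2 units in the Fzd8-CRD arrays (difference -0.49). The second Efna5 probe, which begins tcggaaaaa in the sequence above, stood at 0.029 to 0.36 with Fzd8-CRD and at 0.039, 2.73, 0.13 and 0.047 in the controls. Control array 2 alone set the sign of that probe's difference of -0.56, and the mean of both probes gave 0.18 with no call (adjusted p = 0.632).

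Efnb2 encodes ephrin-B2, the arterial partner of EphB4. Its ratios overlapped, from 0.60 to 1.21 and from 0.84 to 1.47, and its difference of -0.32 was not called (adjusted p = 0.235 in limma). Efnb3 stood at 0.42 (adjusted p = 0.235), Efna3 at 0.097, Efna1 at 0.052 and Efna4 at -0.34, or -0.058 without control array 2. Thus Ephb4 was called higher while its vascular ligand was not called in either direction.

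**Figure D2:**
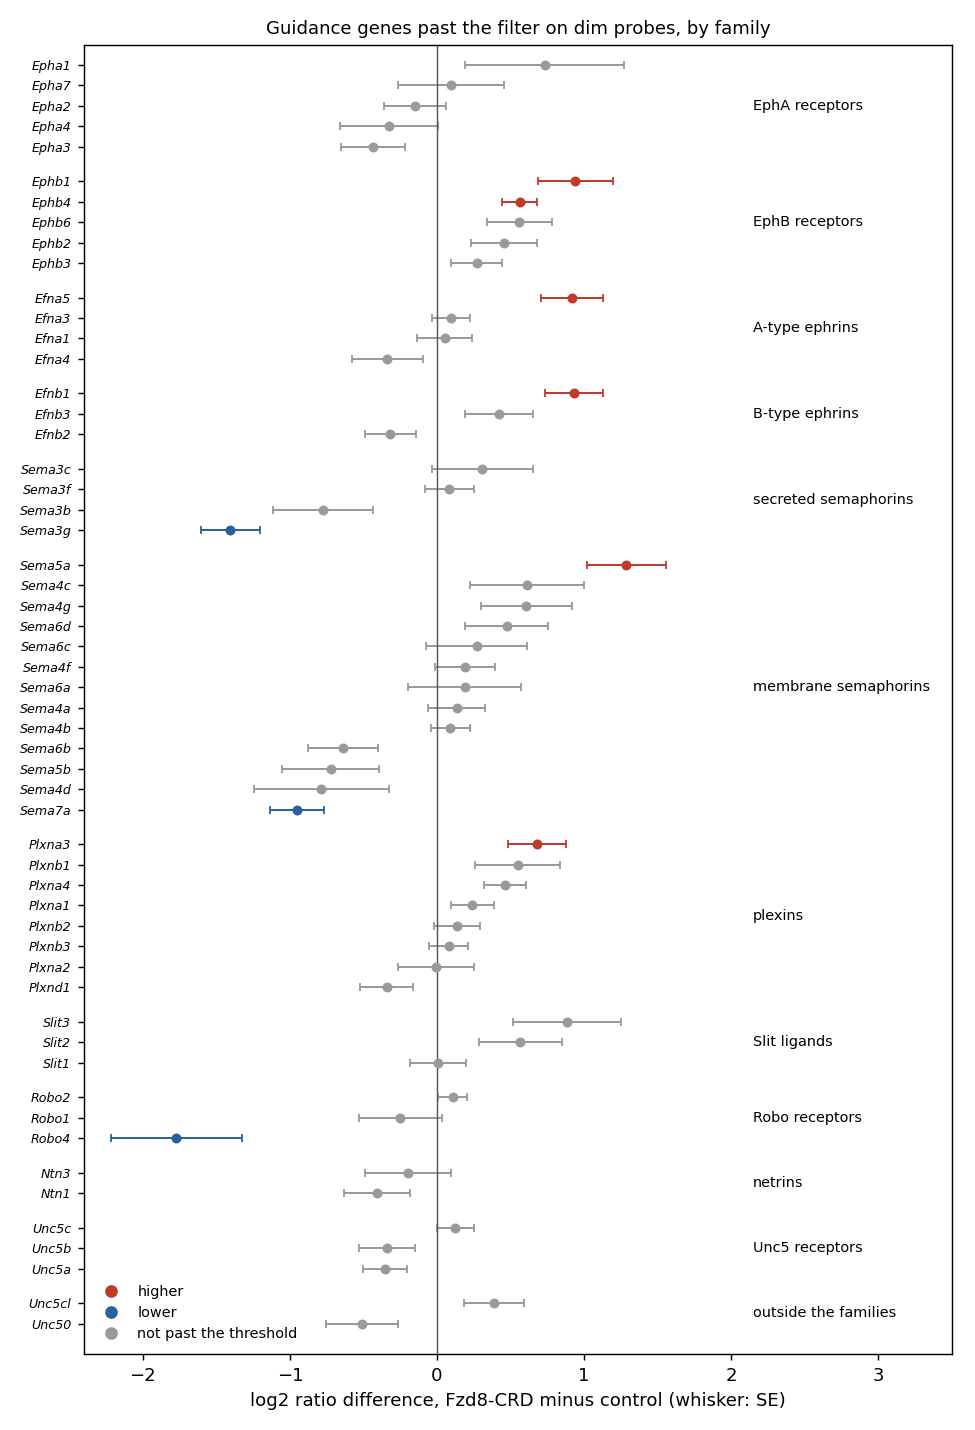
Difference in log2 ratio, Fzd8-CRD minus control (horizontal axis), with its SE (whiskers), for the 55 members measured, grouped by family. Red marks genes called higher, blue genes called lower and grey the rest. The 5 EphB receptors lie between 0.27 and 0.94, and Robo4, at -1.77, is the lowest of the members.

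Semaphorins moved in both directions. Of 17 measured, Sema5a rose, Sema3g and Sema7a fell, and the median was 0.13. Sema5a encodes a transmembrane semaphorin with thrombospondin repeats. On Fzd8-CRD arrays 1 to 5 its ratio was 2.11, 2.22, 1.09, 1.82 and 2.26, and on control arrays 1 to 4 it was 0.11, 0.55, 0.90 and 0.89. Array 3 was the low one of the treated group and still exceeded each control. The difference of 1.29 (SE 0.27, adjusted p = 0.0153 in limma) is a 2.44-fold higher ratio. With each dye read alone, Cy5 differed by 1.04 and Cy3 by -0.43. The second Sema5a probe also passed in the fit over all kept probes, where 14.6% of probes were called, at 0.44 (adjusted p = 0.03). Its Fzd8-CRD ratios of 0.27 to 0.66 lay above the control ratios of 0.026 to 0.19.

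Sema3g encodes a secreted semaphorin that is known for expression in vessel walls. Its ratios were 0.32, 0.81, 0.05, -0.17 and -0.04 in the treated group and 1.49, 1.42, 1.67 and 1.81 in the controls. No treated array reached the lowest control, and the ratio fell by 1.41 log2 units (difference -1.41, SE 0.20, adjusted p = 0.00529 in limma), or 2.65-fold. The probe cleared the background call on all 4 controls and on 4 of the 5 treated arrays. It was called lower under each of the 23 alternatives in which it could be tested.

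Sema7a encodes a semaphorin anchored by a lipid, which binds plexin C1 and integrins. Its ratios were 0.38, 0.10, 0.37, 0.53 and 0.15 with Fzd8-CRD and 1.41, 1.69, 1.09 and 0.83 in controls. The groups did not overlap, and the difference was -0.95 (SE 0.18, adjusted p = 0.0118 in limma). Its plexin, Plxnc1, had no probe past the filter, with at most 3 arrays above background.

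The remaining semaphorins were not called. Sema3b, a secreted semaphorin that binds neuropilins, ran from 1.78 to 3.38 in the treated group and from 2.81 to 3.99 in controls, with a difference of -0.78 (adjusted p = 0.149 in limma). Sema3c and Sema3f stood at 0.31 and 0.085. Sema6b, a transmembrane ligand of class A plexins, was at -0.64 with groups apart (adjusted p = 0.102), and at -0.35 without control array 2, whose ratio was 0.90 against -0.27 to -0.20 in the other controls.

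Control array 2 stood apart from the other controls for Sema4d and Sema5b as well. Sema4d, the plexin-B1 ligand that is abundant on T cells, had ratios of 0.47, 2.81, 0.39 and 0.48 in controls 1 to 4 and 0.076 to 0.49 in the treated group. Sema5b had 0.39, 2.03, 0.32 and 0.31 in the controls and -0.050 to 0.077 in the treated group. The same array had a summed Cy5 signal of 6425 over 8 lymphocyte markers, against 1309 to 1618 in the other controls and 926 to 1205 in the treated group, where Cd79a was not above background on any array. Its sums were also the highest of all arrays for erythrocyte markers (825494, against 10895 to 45170 in the other controls), fibroblast markers (100618 against 19164 to 62196) and macrophage markers (25587 against 8158 to 16282). None of the 8 lymphocyte markers was called, and the part of these markers in the semaphorin values was not tested. Without control array 2 the Sema4d difference was -0.20 instead of -0.79. The Sema5b difference without it was -0.30 instead of -0.72 and was called (adjusted p = 0.0492 in limma), with the remaining controls between 0.31 and 0.39.

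The other transmembrane semaphorins spread around their family median of 0.19. Sema4c, Sema4g and Sema6d stood at 0.61, 0.61 and 0.47, and Sema6c (0.60 without control array 2), Sema4f, Sema6a, Sema4a and Sema4b between 0.091 and 0.27. For Sema6d, a transmembrane semaphorin that binds plexin A1, a second probe 5424 bases away gave a different answer from the brightest one. That probe read 2.98, 2.82, 2.27, 2.55 and 2.08 on the Fzd8-CRD arrays and 1.65, 1.07, 1.57 and 1.74 on the controls. The groups were apart, with a difference of 1.03 (adjusted p = 0.0151 in limma over all kept probes), while the brightest probe overlapped between the groups and the remaining probe stood at -0.13. Over all kept probes, 11 of the 80 member probes (13.8%) were called, against 14.6% of all.

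Plexins gave 1 call in 8. Plxna3 encodes plexin A3, a co-receptor for secreted semaphorins with neuropilin. Its ratios were 0.05, 0.21, -0.16, -0.59 and 0.03 with Fzd8-CRD and -0.96, -1.07, -0.66 and -0.40 in controls. Array 4 of the treated group fell inside the control range, and the difference was 0.68 (SE 0.20, adjusted p = 0.0482 in limma). This call sat at the threshold. It was lost in 16 of 24 alternatives, among them the omission of any of Fzd8-CRD arrays 1, 2, 3 and 5 (0.64, 0.60, 0.70 and 0.65) and of control arrays 1, 2 and 3 (0.61, 0.58 and 0.72). A second Plxna3 probe stood at 0.16.

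Plxna4 was as close to the threshold on the other side. Its treated ratios lay between -0.31 and -0.22 and its control ratios between -0.95 and -0.35, with a difference of 0.46 (adjusted p = 0.0561). Without control array 2 the difference was 0.58 and passed (adjusted p = 0.0121 in limma). Plxnb1, the receptor of Sema4d, stood at 0.55 (adjusted p = 0.219), and Plxna1, Plxnb2 and Plxna2 at 0.24, 0.13 and -0.0047. Plxnd1, the endothelial plexin, stood at -0.34 (adjusted p = 0.216). Plxnb3 cleared the background call on 0 of 5 Fzd8-CRD arrays. One dimmer Plxna1 probe read 4.92 on control array 2 and between 0.20 and 0.71 on the other 8 arrays, which alone gave it a difference of -0.95.

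Of the Robo receptors, Robo4 fell and Robo1 and Robo2 were not called. Robo4 is the family member made by endothelial cells. Its ratios were 3.84, 3.98, 2.63, 2.67 and 1.55 on the Fzd8-CRD arrays and 4.62, 4.93, 4.67 and 4.62 on the controls. All treated arrays lay below the controls, which differed little from each other (SD 0.15, n = 4, against 1.00, n = 5). The difference of -1.77 (SE 0.45, adjusted p = 0.0292 in limma) is a 3.42-fold lower ratio. In Cy5 alone the values were 10.16, 9.97, 9.41, 9.15 and 8.80 against 10.85, 11.36, 11.29 and 11.06 on the log2 scale, a difference of -1.65 (adjusted p = 0.00563).

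The reference dye sets how far the Robo4 ratio can be read. Its Cy3 signal cleared the background call on all 4 controls but on 2 of the 5 treated arrays, and differed by -0.61. With the scanner software's own ratio, which has its own background correction, the values turned around. They were 6.11, 5.98, 7.38, 5.91 and 6.87 with Fzd8-CRD and 5.70, 5.51, 5.24 and 5.20 in controls, a difference of 1.04 (adjusted p = 0.0567). The Cy5 difference given above uses no reference signal. The ratio also missed the threshold without Fzd8-CRD array 3 or 4 (-1.70 and -1.71) and without any one of control arrays 1 to 4 (-1.80, -1.70, -1.79 and -1.80).

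Robo1, a receptor for Slits in mammary epithelium, ran from 0.94 to 1.76 in the treated group and from 0.95 to 2.25 in controls, a difference of -0.25 (adjusted p = 0.561 in limma). Its difference was of like size in Cy5 (0.57) and Cy3 (0.55). The Slit ligands had no call. Slit3 ratios were 0.32, -0.0040, -0.21, 0.23 and 0.75 against -1.82, 0.21, -0.35 and -0.69, with a difference of 0.88 (SE 0.37, adjusted p = 0.132). Control array 2 was the highest control here, inside the treated range, and without it the difference was 1.17 and passed (adjusted p = 0.0458). Slit2 stood at 0.57 (adjusted p = 0.199), though its other kept probes gave 0.10 and -0.0017, and Slit1 at 0.0064.

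Netrins and their Unc5 receptors gave no call. Ntn1, which encodes netrin-1, ran from 0.28 to 1.20 with Fzd8-CRD and from 0.57 to 1.30 in controls, a difference of -0.41 (adjusted p = 0.24 in limma). Ntn3 stood at -0.20, a sign that rested on control array 2, without which it was 0.16. Unc5a, Unc5b and Unc5c, receptors through which netrins repel, stood at -0.35, -0.34 and 0.12. Unc5b, the one known in vessels, had ratios of -0.78 to -0.074 and of -0.64 to 0.081. The genes outside the families, Unc5cl and Unc50, stood at 0.39 and -0.51 with no call, and without control array 2 Unc50 passed at -0.80 (adjusted p = 0.00745).

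The 11 members with no probe past the filter were Efna2, Epha5, Epha6, Epha8, Epha10, Ntn4, Plxnc1, Sema3a, Sema3d, Sema3e and Unc5d. None of their probes was well above background on more than 3 arrays. No difference is read for them.

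**Figure D3:**
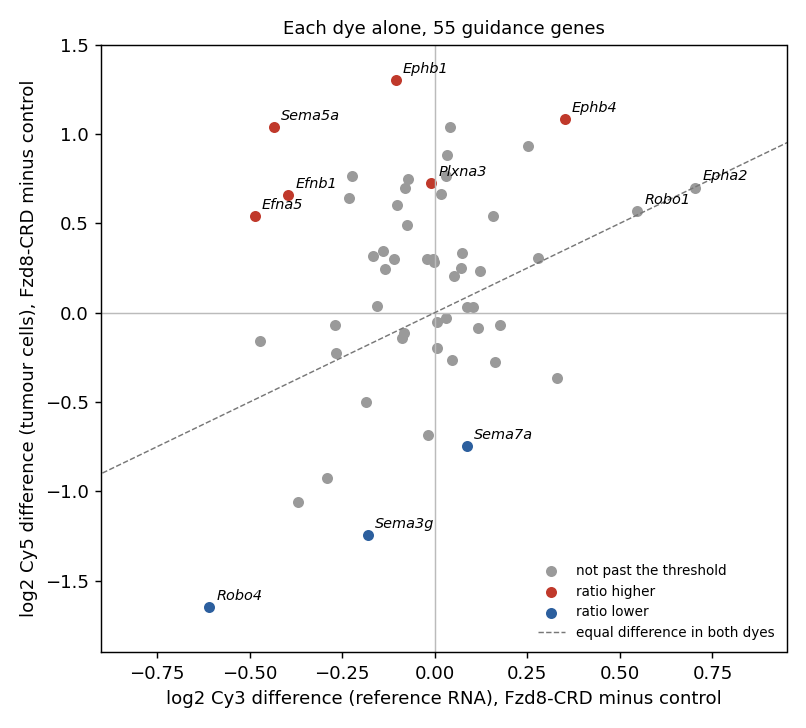
Difference in log2 Cy5 signal (tumour cells, vertical axis) against difference in log2 Cy3 signal (reference RNA, horizontal axis), Fzd8-CRD minus control, for the 55 members, each dye quantile-normalized alone. Points on the dashed line differ equally in both dyes, as Epha2 does at 0.70, while Ephb1, Plxna3, Sema3g and Sema7a differed mainly in Cy5.

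The reference channel was tested on its own for every member. Cy3 alone differed for 27 of 55 members (49.1%), against 59.3% of all genes, and Cy5 alone for 9 (16.4%), against 19.1%. Of the 9 genes called by ratio, 7 were also called in Cy5, and Efna5 and Efnb1 were not. Sema4g (0.93, adjusted p = 0.0352) and Unc5cl (0.77, adjusted p = 0.00979) were called in Cy5 and not by ratio. The labels do not say whether one batch of reference RNA served all slides, and the part of the reference in the ratios was not tested.

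Among the 9 members listed as vascular, Robo4 and Sema3g fell, Ephb4 rose and 6 were not called, and the median was -0.32. Markers of several other cell types were lower beside the 2 that fell. All 12 endothelial markers were called lower, with a median difference of -1.91, and their summed Cy5 signal was 2276 to 4766 on Fzd8-CRD arrays against 8471 to 14139 on controls. None of the 12 was below background on every treated array. Pericyte markers were called lower in 3 of 6 cases, with sums of 2860 to 6864 against 4588 to 9666. All 3 erythrocyte markers were called lower too, with a median of -4.31 and sums of 386 to 1703 against 10895 to 825494. Of the fibroblast markers, 1 of 6 was called lower, with a median of -1.60 over the 6. The macrophage list also had 1 of 6 called lower, with a median of -0.51. None of the 8 lymphocyte markers was called, and their median was -0.65. In bulk RNA, fewer cells of a type and less RNA per cell cannot be told apart, and the part of these cell types in the Robo4 and Sema3g values was not tested.

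**Figure D4:**
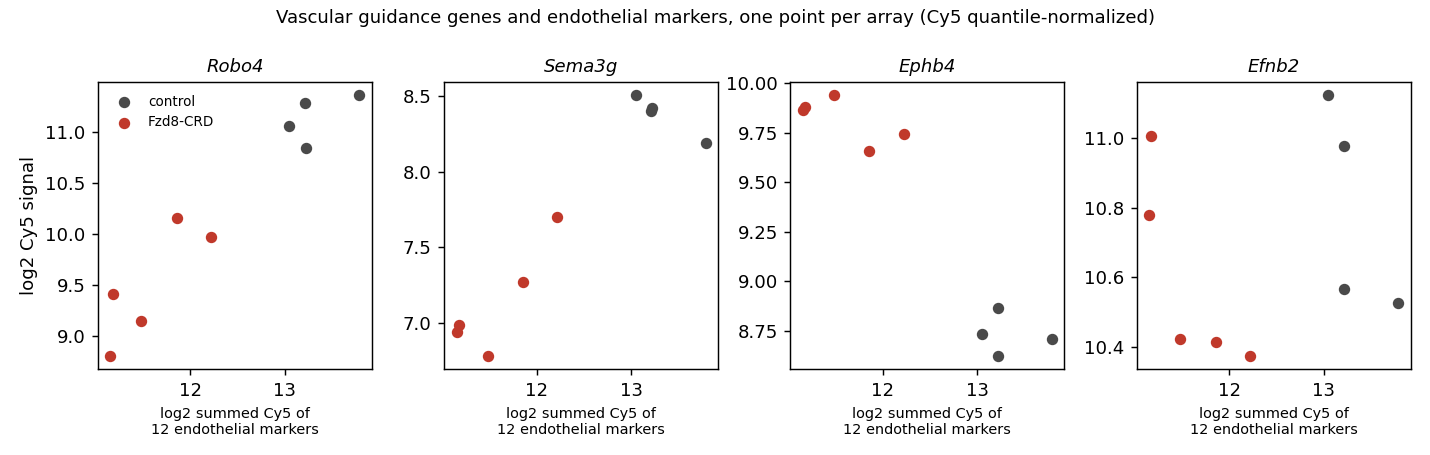
Log2 Cy5 signal of Robo4, Sema3g, Ephb4 and Efnb2 (vertical axes, each with its own range) against the log2 summed Cy5 signal of 12 endothelial markers (horizontal axes), 1 point per array, with controls in grey and Fzd8-CRD in red. Robo4 and Sema3g are lower in all 5 Fzd8-CRD arrays, at 8.80 to 10.16 and 6.78 to 7.70, Ephb4 is higher in all 5, at 9.66 to 9.94 against 8.62 to 8.86, and Efnb2 overlaps.

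Sema3g in Cy5 was 7.27, 7.70, 6.99, 6.78 and 6.94 on Fzd8-CRD arrays 1 to 5 and 8.42, 8.19, 8.40 and 8.50 on the controls. The control array with the most endothelial signal, array 2 (14139), had the lowest control Sema3g signal and the highest control Robo4 signal (11.36 in Cy5). In the treated group, arrays 2 and 1 had the most endothelial signal (4766 and 3709) and also the most Sema3g signal. How Sema3g follows the endothelial signal was not tested. Of the 6 measured members of the immune list, Sema7a fell and the rest were not called. Basal epithelial markers had sums of 212703 to 392606 in the treated group and 108001 to 193192 in the controls, with 1 of 6 called higher. Luminal epithelial markers had sums of 272393 to 572881 and of 419120 to 714711. Their median difference was -0.62, against 0.73 for the basal markers, and none of the 6 was called. The part of either list in the values of Ephb1, Ephb4, Efnb1, Efna5, Sema5a and Plxna3 was not tested.

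Co-receptors and signalling partners of these families were read from a separate list of 57 genes, of which 52 were measured. Of these, 4 were called higher and 4 lower, where 6.57% and 7.76% of all genes were, and the median was -0.043. Higher were Dpysl3 (1.30, adjusted p = 0.0464), a collapsin response mediator that carries semaphorin signals to the cytoskeleton, and Srgap3 (0.66, adjusted p = 0.0364), a GTPase-activating protein bound by Robo receptors. Arhgef11 and Arhgef12, which encode proteins that bind B-class plexins, also rose (0.52 and 0.84, adjusted p = 0.0111 and 0.0244 in limma). Lower were Kdr (-2.12, adjusted p = 0.0156), the endothelial VEGF receptor, and Rnd1 (-1.20, adjusted p = 0.0198), a small GTPase that binds plexins. Flrt3, a ligand of Unc5 receptors (-1.04, adjusted p = 0.0243), and Gipc1, an adaptor for plexins and neuropilins (-0.87, adjusted p = 0.0215), fell as well. Nrp1 and Nrp2, co-receptors of secreted semaphorins, stood at 0.31 and -0.86 and were not called (adjusted p = 0.284 and 0.0747 in limma). For Nrp1, Cy5 alone differed by -0.50 (adjusted p = 0.0147 in limma) and Cy3 alone by -0.64. The Nrp1 probe cleared the background call on all 4 controls and on 2 of the 5 Fzd8-CRD arrays. Over 24 alternatives, Arhgef11 and Rnd1 lost their calls in 3, Gipc1 in 4, Arhgef12 in 8, Srgap3 in 11 and Dpysl3 in 12. Flrt3 lost its call in 11 and turned in 1, and Kdr lost its call in 2 and turned in 2. Like Robo4, Kdr changed sign under the scanner's ratio (0.33).

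The promoters of the called genes were read from RefSeq (GRCm38.p6), in which 57 of the members matched 73 promoters, each from 250 bases before to 50 after a start site. The core letters bound by TCF/LEF factors, CTTTGA, were searched on both strands and occur in 16% of all 32851 promoters. They were found in 4 of the 73 member promoters and in 1 of the 9 called genes, Robo4. An ETS-type motif, CAGGAAG, occurs in 13.3% of all promoters, in 9 of the 73, and in those of Efnb1, Plxna3 and Robo4. The motifs do not overlap. The 250 bases before the start site of these 3 genes are given with the motif letters, as read on the plus strand, in capitals.
Robo4, chr9:37401722-37401971, plus strand: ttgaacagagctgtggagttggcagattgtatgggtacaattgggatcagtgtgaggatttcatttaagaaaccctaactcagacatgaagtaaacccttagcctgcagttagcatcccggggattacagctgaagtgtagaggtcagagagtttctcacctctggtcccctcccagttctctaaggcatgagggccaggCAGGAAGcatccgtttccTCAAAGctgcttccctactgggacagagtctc
Efnb1, chrX:99135811-99136060, plus strand: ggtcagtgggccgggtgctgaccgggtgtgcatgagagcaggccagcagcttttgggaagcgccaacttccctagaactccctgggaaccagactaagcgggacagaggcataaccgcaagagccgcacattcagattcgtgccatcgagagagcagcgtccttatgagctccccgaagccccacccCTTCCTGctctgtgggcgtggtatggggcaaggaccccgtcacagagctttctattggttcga
Plxna3, chrX:74328816-74329065, plus strand: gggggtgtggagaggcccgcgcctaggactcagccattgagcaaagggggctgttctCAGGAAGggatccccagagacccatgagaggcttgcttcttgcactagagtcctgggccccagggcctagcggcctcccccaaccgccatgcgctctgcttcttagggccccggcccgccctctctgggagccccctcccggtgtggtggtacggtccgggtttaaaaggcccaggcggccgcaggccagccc

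In Robo4 the ETS letters begin 50 bases and the TCF/LEF letters, on the minus strand as TCAAAG in the line above, 32 bases before the start site. The ETS letters begin 63 bases before the start in Efnb1 and 193 in Plxna3. The Robo4 window holds 2 CpG dinucleotides in 300 bases, and 23.3% of all promoters hold no more. The other called genes hold 8 (Sema3g) to 38 (Efna5), the member promoters have a median of 20 and all promoters a median of 7. These matches describe letters in the reference genome, and no binding was measured here.

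The calls differed in how often they held. Over the alternatives tested, Sema3g kept its call in 23 of 23, and Ephb4 and Sema7a kept theirs in 22 of 24. Sema5a held in 21, Efna5 and Efnb1 in 20, Ephb1 in 15, Robo4 in 12 and Plxna3 in 8. All counts of alternatives given here include settings that add little. Quantile normalization of average intensity left every ratio as it was. The fit over all kept probes reused the same probe values, and the deposited series table repeated the scanner's ratio. Median centring and the averaging of close arrays, under which few genes of the whole array were called (3.36% and 1.86%), removed all of the calls but that of Sema3g.

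**Figure D5:**
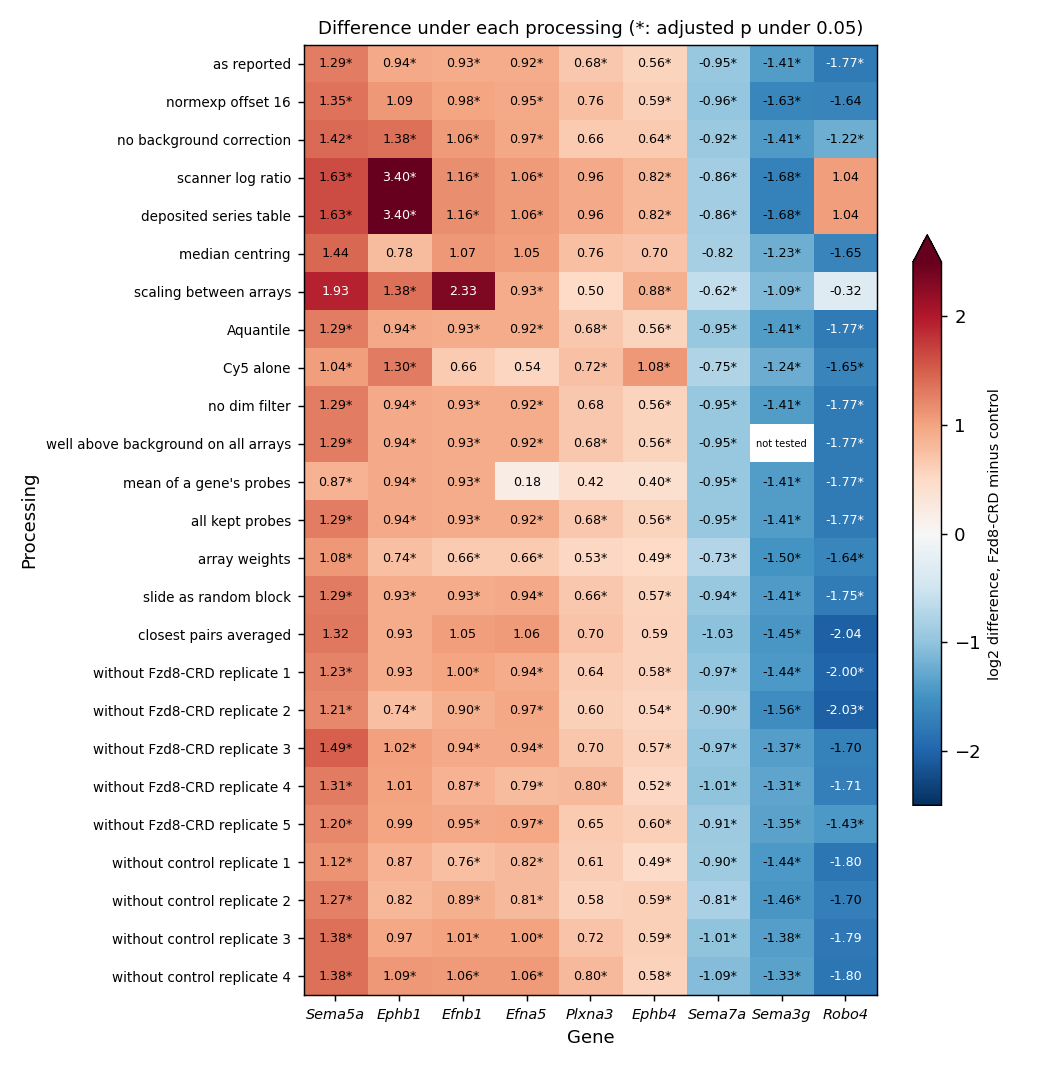
Log2 difference, Fzd8-CRD minus control, of the 9 called members (columns) under each processing (rows), with colour for its size (colours are cut at 2.5) and a star where the adjusted p was under 0.05. Sema3g is starred in each row in which it was tested, and Robo4 turns to 1.04 under the scanner's ratio and the deposited series table.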

How the data were processed

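Per the file headers, the scanner software (Agilent Feature Extraction, version 9.5.3.1) wrote a linear intensity for each dye of a spot and a log10 ratio that it had corrected and dye-normalized. In the series matrix the authors deposited 1 linear ratio per probe and array, and its log2 tracked the scanner ratio with a correlation of 1 on each array. Intensities were background-corrected (normexp, offset 50) and loess-normalized within arrays in limma 3.58.1 (R 4.3.3, data.table in version 1.17.8), with 1229 outlier spots left out and spots of a probe averaged. Each gene was read from its brightest kept probe, and groups were compared over all 18267 genes with lmFit and eBayes, Benjamini-Hochberg adjustment and a threshold of 0.05. The offset understates differences of dim genes, and the number of arrays limits the precision. The comparison was tested on simulated data. Marker sums are of quantile-normalized Cy5.

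Members and lists were chosen with earlier results of these data known. Named were the called members, up to 3 uncalled ones per family with the largest difference, a set of known vascular, TCF-linked and immune members, the dim ones, those with opposite probes, and called partners. Other members, Nrp1, Nrp2 and Cd79a were picked once their values had been seen. Alternative settings varied background, normalization, dye, filter, probe, array weights, slide and omitted arrays.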

Additional observations from a re-analysis of the deposited data

Results flagged for a closer look

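Only members named by the rules above, not all 55, were tested for an array far from the rest. Of their 80 groups of ratios, 6 held one, where chance gives about 1 in 20, or 4. Control array 2 was the highest control for Sema4d (2.81, others 0.39 to 0.48), Sema5b (2.03, others 0.31 to 0.39) and Robo4 (4.93, others 4.62 to 4.67). Efna5 was highest on Fzd8-CRD array 4 (1.03, others 0.32 to 0.46), and Robo1 was lowest on Fzd8-CRD array 3 (0.94, others 1.60 to 1.76). Ephb4 was lowest on control array 1 (0.20, others 0.48 to 0.53). Among members not tested, Sema6b, Epha3 and Unc5c read 0.90, 1.20 and 0.31 on control array 2. Their other controls lay at -0.27 to -0.20, 0.12 to 0.20 and -0.15 to -0.13. Sema4c, also not tested, read 0.62 on Fzd8-CRD array 4 (others 2.09 to 2.37).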

How the results depend on the processing

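Reported were 6 members higher, 3 lower and a median difference of 0.108. With the scanner's ratio, and with the deposited series table, 10 were higher and 3 lower, with a median of 0.447. Of all genes, 15.2% and 14.8% were called. Under both, Epha7, Plxnb1, Sema6a, Sema6d and Unc5cl gained a call as higher and Sema6b as lower, and Plxna3 and Robo4 lost theirs. Robo4 turned to 1.04 under both, and Kdr to 0.33 and 0.30. Median centring in place of loess, and averaging the closest arrays of each group (control 3 and 4, Fzd8-CRD 1 and 2), each left 0 higher and 1 lower, Sema3g. Scaling between arrays gave a median of 0.294 and turned Flrt3 to 0.54, and Cy5 alone gave 0.284. Array weights gave 10 higher and 10 lower, with 32.9% of all genes called. Slide as a random block gave 9 higher and 4 lower, with 30.2% of all genes called. The correlation within slides was estimated at -0.168 for this fit. Because no slide held both groups, it could not adjust the difference for slide. Leaving out 1 array at a time gave 4 to 7 higher, 2 to 4 lower and medians of 0.0893 to 0.153. Without control array 2, 7 were higher and 4 lower (17.0% of all genes called), of which 6 were among the 9. Over the results and alternatives run, 1009 values kept their side of the threshold (42 of them, uncalled, changed sign), 104 lost their call, 31 gained one and 5 reversed. The cause of these changes was not tested. No paired analysis was possible because the labels carry no replicate numbers. Reference signal near background limits the ratios of Ephb1 and Robo4.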
